A study of Drosophila melanogaster with 2 samples.

Results

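The proteasome subunit genes of Drosophila melanogaster were taken as all protein-coding genes whose symbol starts with Prosalpha or Prosbeta, or with Rpn or Rpt followed by a digit. The rule gave 48 of the 13968 protein-coding genes of the annotation, and it used no measured value. They are 32 canonical subunit genes and 16 paralogs, whose symbols end in T or R (with or without a number). The canonical genes encode the 7 subunits of the alpha ring, the 7 of the beta ring, 10 of the base (Rpt1 to Rpt6, Rpn1, Rpn2, Rpn10 and Rpn13) and 8 of the lid (Rpn3, Rpn5, Rpn6, Rpn7, Rpn8, Rpn9, Rpn11 and Rpn12).

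The measurements were peak lists from chromatin immunoprecipitation with sequencing (ChIP-seq) of Bicoid, a homeodomain protein laid down by the mother that switches on head and thorax genes at the front of the egg. Both libraries, replicates 1 and 3, were of strain 1T-GFP, a transgenic line that stably carries Bicoid with green fluorescent protein (GFP) at its C-terminus, and an anti-GFP antibody was used for the precipitation. Each library was made from its own biosample of whole embryos, male and female together, collected over 0 to 24 hours, and they form 1 group with no second condition or untagged control used here. All cell types and stages of embryogenesis are pooled, the promoter that drives the transgene is not stated in the labels, and the endogenous bcd gene is not described. Sequencing depth is unknown, since the lists carry no counts of reads.

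The proteasome is the cell's main machine for destroying proteins tagged with ubiquitin. Its core particle is a barrel of stacked alpha and beta rings, in which the beta subunits cut the substrate and the alpha subunits control the gate. The regulatory particle caps the barrel: the base holds the ring of Rpt ATPases that unfolds substrates, and the lid holds the subunits that take off ubiquitin. The canonical genes are needed in nearly all cells, whereas several of the paralogs, such as Prosalpha6T, are known for expression in the testis.

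Summits were counted in a window of the gene body plus 5 kb upstream. In the set thresholded with the irreproducible discovery rate (IDR) procedure, which holds 6054 entries, 16 of the 48 members (33.3%) had a summit in that window, beside 41.7% of all protein-coding genes. All 16 were canonical, so that 16 of the 32 canonical genes (50%) and 0 of the 16 paralogs were counted. Among the 7997 genes with windows as long as the members' (5881 to 9500 bp), the share was 38.1%. By part of the complex, the window held a summit at 2 of 7 alpha ring genes, 4 of 7 beta ring genes, 5 of 10 base genes and 5 of 8 lid genes. The members' share is near that of all genes, and no difference between parts of the complex was tested.

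At the gene's own start, the lid had the highest count when any annotated start was used, but not over the base when only the gene's 5′ end was used. Within 500 bp of an annotated transcription start site (TSS) of the gene, 12 members (25%) had an IDR summit, beside 23% of all protein-coding genes. These were 5 of the 8 lid genes (Rpn3, Rpn5, Rpn6, Rpn8 and Rpn11), 3 of the 10 base genes (Rpn1, Rpn2 and Rpn13), 2 alpha ring genes (Prosalpha3 and Prosalpha4) and 2 beta ring genes (Prosbeta1 and Prosbeta2). None of the 6 genes for the Rpt ATPases was among them. The 32 canonical genes reached 37.5% and the paralogs 0. For the cytoplasmic ribosomal protein genes, another large set of genes that nearly all cells use, the share was 83.7% of 92 genes near a TSS and 88% in the window. The differences between these sets were not tested. Rpn6 and Rpn8 were counted through a TSS inside the gene span. With only each gene's 5′ end used, 10 members had a summit. The lid genes were then Rpn3, Rpn5 and Rpn11, in number no more than in the base. As the lid has 8 genes and the base 10, the lid's share was still the higher.

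**Figure D1:**
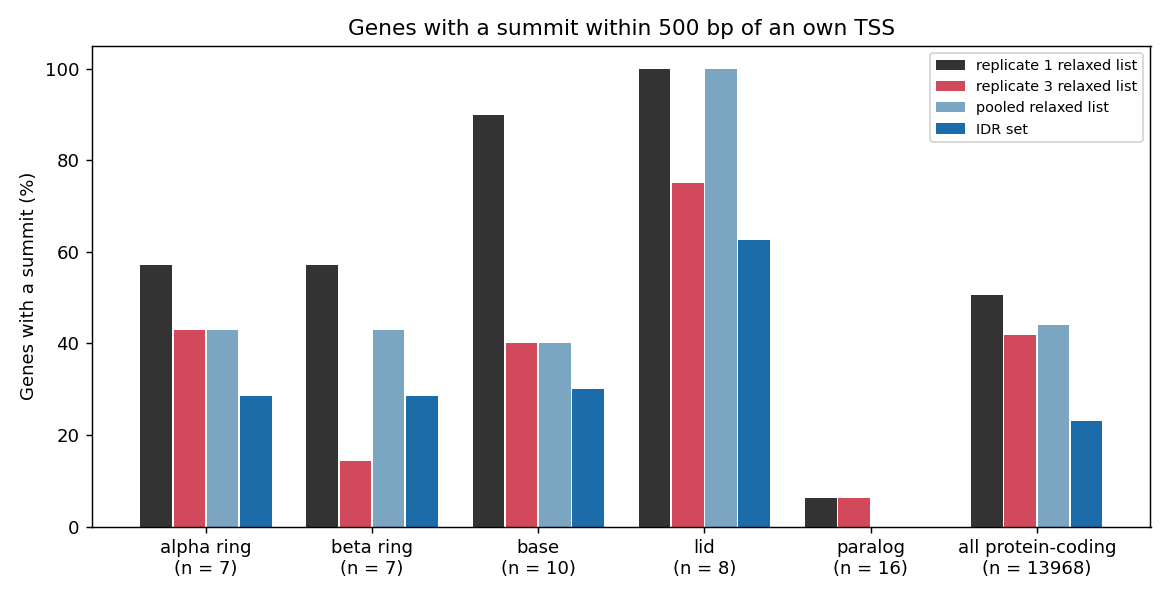
Share of genes, in percent, with a summit within 500 bp of an own TSS, for the parts of the proteasome, the paralogs and all protein-coding genes, in the IDR set and in the relaxed lists. In the IDR set the lid stands at 62.5% and the paralogs at 0, against 23% for all protein-coding genes. An own TSS is any annotated start of the gene, and the lid's value counts Rpn6 and Rpn8 through starts inside the gene span.

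All 12 promoter summits lay upstream of the nearest own TSS, between 24 and 303 bp from it, with a median of 84.5 bp. Many of these summits also lay near the start of another gene. In 10 of the 12 another protein-coding gene had a TSS within 500 bp of the summit, all but Rpn1 and Rpn11. In 5 of the 12 the other gene's TSS was the nearer one: kat80 at Prosalpha4, mRpL39 at Prosbeta2, Rrp42 at Prosbeta1, Hat1 at Rpn5 and Slik at Rpn8. A summit there cannot be assigned to 1 of the 2 genes from its position. At Rpn6 and Rpn8 the summit also lay inside the annotated gene span, because a longer transcript of the gene starts further upstream. The counts in this paragraph were not made over all genes with a promoter summit, so they describe the members and are not read as particular to them.

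Of the canonical genes, 19 of 32 (59.4%) had the TSS of a divergent protein-coding neighbour, one on the opposite strand, within 1 kb upstream, beside 35.2% of all protein-coding genes and 3 of the 16 paralogs. Of the 19, 10 had an IDR summit in the window (52.6%) and 8 within 500 bp of an own TSS (42.1%), beside 55.5% and 38.8% of all genes with such a neighbour. Of the 13 canonical genes without one, 6 had a summit in the window (46.2%) and 4 at an own TSS (30.8%), beside 34.2% and 14.4% of all genes without one. Canonical genes thus differed from all genes by less among genes with a divergent neighbour than among those without, and neither difference was tested. The neighbour was sought only upstream of the gene's 5′ end, whereas summits were counted at any own TSS. Of the 4 genes, Rpn6 and Rpn8 were counted through a TSS inside the gene span. Their summits lay 157 bp from the TSS of ave and 59 bp from that of Slik, both on the opposite strand. The contrast rests in part on this mismatch and is not read further.

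**Figure D2:**
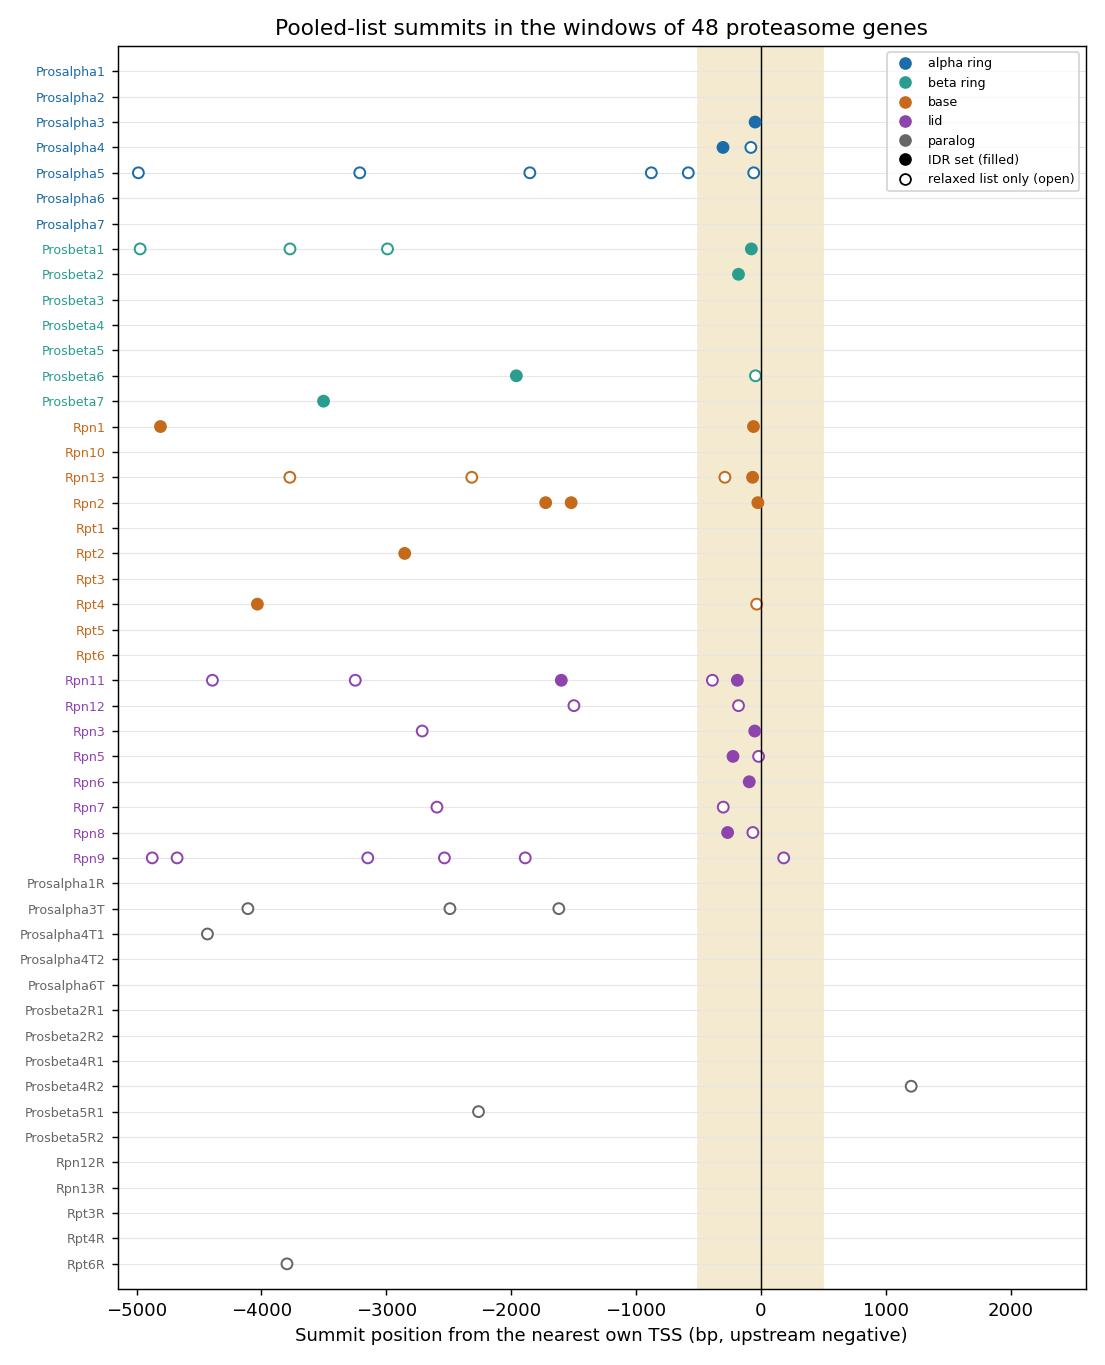
Position of each summit in the members' windows, as distance in bp from the nearest own TSS (negative is upstream), with 1 line per gene; filled points are in the IDR set and open points only in the pooled relaxed list. The 12 genes with an IDR summit at an own TSS have it between 24 and 303 bp upstream, and paralog lines carry no filled point.

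The sequences of 4 promoters are shown, 1 for each part of the complex, to let the letters under and beside these summits be read. Each is the member with the highest peak signal (the authors' value for each peak) in its part that has an IDR summit within 500 bp of an own TSS, among members on the arms X, 2L, 3L and 3R. They were read from the RefSeq Release 6 genome (dm6), all on the plus strand, and run to 10 bases past the TSS from the neighbouring gene's start or 290 bases upstream. Capitals mark words searched for: TATCGATA, the palindromic word read by the DNA replication-related element factor DREF; GGTCACAC, read by motif 1 binding protein M1BP; TGACNNNGC, the core of the antioxidant response element read by CNC factors with small Maf; and TATAAA. The stretches are chrX:16276181-16276279 for Prosalpha4, chr3L:14999667-14999960 for Prosbeta2, chr3L:19914761-19915060 for Rpn1 and chr3R:5789385-5789502 for Rpn5.
Prosalpha4: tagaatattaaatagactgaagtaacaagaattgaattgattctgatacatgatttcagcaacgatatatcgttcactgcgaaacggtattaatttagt
Prosbeta2: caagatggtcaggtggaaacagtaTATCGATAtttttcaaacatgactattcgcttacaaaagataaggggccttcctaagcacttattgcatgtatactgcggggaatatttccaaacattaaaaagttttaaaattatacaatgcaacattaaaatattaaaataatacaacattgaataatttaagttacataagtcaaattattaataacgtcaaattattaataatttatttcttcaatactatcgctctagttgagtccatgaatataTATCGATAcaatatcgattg
Rpn1: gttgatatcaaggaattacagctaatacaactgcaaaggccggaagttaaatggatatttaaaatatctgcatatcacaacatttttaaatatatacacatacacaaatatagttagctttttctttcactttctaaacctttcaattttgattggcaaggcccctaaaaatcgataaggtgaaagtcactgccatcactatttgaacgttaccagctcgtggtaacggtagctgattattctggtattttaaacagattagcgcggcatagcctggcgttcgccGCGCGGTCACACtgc
Rpn5: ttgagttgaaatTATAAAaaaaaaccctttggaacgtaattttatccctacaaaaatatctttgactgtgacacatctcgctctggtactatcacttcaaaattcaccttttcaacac
Prosbeta2 holds TATCGATA at 260 and again at 10 bases before its TSS, with the summit between them, and Rpn1 holds GGTCACAC across its TSS, overlapping TGACNNNGC. The summits of Prosalpha4 and Rpn5 lie outside the stretches shown, in the kat80 and Hat1 genes. None of these 4 stretches holds TAATCC, the word that Bicoid's homeodomain reads.

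The 2 strongest member peaks were counted at lid genes, Rpn6 and Rpn5, though the Rpn5 summit lay nearer to the TSS of Hat1. The signal given here is the authors' own value for each peak, on the peak caller's scale; it serves here to describe and order the entries of 1 list, and rank 1 is the strongest of the 30000 entries of a relaxed list. A replicate's value is that of its strongest entry overlapping the pooled interval. Rpn6, which braces the lid against the core particle, had a signal of 631 in the pooled list (rank 598) with its summit 93 bp upstream. In replicate 1 the Rpn6 entry had a signal of 381 (rank 338), and replicate 3 listed none there. It was the only member peak among the 1000 strongest of the pooled list.

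Rpn5, a scaffold subunit of the lid, had a pooled signal of 443 (rank 1105) with 192 in replicate 1 (rank 1202) and 253 in replicate 3 (rank 1098). Its summit lay 223 bp upstream of Rpn5 and 114 bp from the TSS of Hat1, a histone acetyltransferase gene on the other strand. Rpn3, another scaffold subunit of the lid, had a pooled signal of 353 (rank 1573) with 153 in replicate 1 (rank 1779) and 195 in replicate 3 (rank 1638). For both genes the replicates gave neighbouring ranks, unlike Rpn6. Rpn11, the deubiquitinase of the lid, had a summit 188 bp upstream with a pooled signal of 286 (rank 2175), and another 1598 bp upstream with 262 (rank 2438). Rpn8, the partner of Rpn11, was lower, with a pooled signal of 199 (rank 3477).

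In the base, Rpn1, a scaffold that docks ubiquitin receptors, led with a pooled signal of 317 (rank 1874) at 59 bp upstream. Its entry had a signal of 206 in replicate 1 (rank 1082) and no counterpart in replicate 3. The nearest other protein-coding TSS was 1277 bp away, so among protein-coding starts this summit stands near that of Rpn1 only. Noncoding starts were not searched. A second, weaker Rpn1 summit, with a signal of 134 (rank 5615), lay 4808 bp upstream and 28 bp from the TSS of Mi-2, a chromatin remodeller gene. Rpn13, a ubiquitin receptor, had 186 in the pooled list (rank 3822), with 87.6 in replicate 1 (rank 3938) and 97.1 in replicate 3 (rank 4174). Rpn2, the scaffold that holds Rpn13, had 3 IDR summits. Its strongest, with a signal of 175 (rank 4093), lay 1723 bp upstream and 7 bp from the TSS of eIF2D, and the one at its own TSS, 24 bp upstream, had a signal of 166 (rank 4377).

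The 2 ATPase genes with an IDR summit had it at a distance, nearer to the TSS of another gene than to their own. The Rpt4 summit, with a pooled signal of 269 (rank 2370), lay 4032 bp upstream and 68 bp from the TSS of CG15891. Its signals were 155 in replicate 1 (rank 1748) and 118 in replicate 3 (rank 3295). The Rpt2 summit, with a pooled signal of 257 (rank 2517), lay 2852 bp upstream and 498 bp from the TSS of CG5854, with 121 in replicate 1 (rank 2536) and 136 in replicate 3 (rank 2753). Both genes were counted in the window only because of its 5 kb upstream stretch.

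In the core particle the highest signals were distal as well. Prosbeta7, a non-catalytic beta subunit, had the highest, 417 (rank 1219), at a summit 3502 bp upstream and 200 bp from the TSS of Cerk, with 229 in replicate 1 (rank 893) and none in replicate 3. Prosbeta6, also non-catalytic, had 351 (rank 1592) at 1958 bp upstream, 110 bp from the TSS of CG4101, with 182 in replicate 1 (rank 1328) and 178 in replicate 3 (rank 1868). The catalytic subunit genes with a summit at an own TSS were weaker. Prosbeta2, which gives trypsin-like cutting, had 204 (rank 3396) at 179 bp upstream, with 114 in replicate 1 (rank 2780) and 82.5 in replicate 3 (rank 5014). Prosbeta1, which gives caspase-like cutting, had 181 (rank 3926) at 76 bp upstream, with 102 in replicate 1 (rank 3214) and none in replicate 3. Prosbeta5, which gives chymotrypsin-like cutting, had no entry in any list.

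Among the gate-forming alpha subunits, Prosalpha3 had a pooled signal of 201.3 (rank 3437) at 46 bp upstream, with 91.2 in replicate 1 (rank 3737) and 113 in replicate 3 (rank 3468). Prosalpha4 had 170 (rank 4244) at 303 bp upstream, with 83.7 in replicate 1 (rank 4161) and 85.6 in replicate 3 (rank 4795). Taking the strongest IDR entry of each of the 16 members, the signals ran from 170 to 631 with a median of 263, beside a median of 223 over all IDR entries, which reach 4627, and 256 over those near a protein-coding TSS. Their median rank was 2443.5, beside 2019.5 over the strongest entries of all genes with a summit in the window and 850 over the ribosomal protein genes. The median distance of the nearest summit from an own TSS was 183.5 bp for the members and 350 bp for all genes with a summit. Among all genes with windows in the members' length range it was 266 bp. It was 185 bp among all genes with a divergent neighbour and 934 bp among those without one. These differences were not tested.

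The DREF word was counted in many canonical promoters and in no paralog promoter. In the 300 bp from 250 bases before to 50 bases after the gene's 5′ end, TATCGATA was found in 12 of the 32 canonical promoters (37.5%) and in 0 of the 16 paralog promoters, beside 9.36% of all protein-coding promoters. It was in 3 alpha ring, 3 beta ring, 2 base and 4 lid promoters, with its first base between 217 bases before and 26 bases after the 5′ end. The word is its own reverse complement, so both strands are searched at once. A match is a description of the letters and not of a bound factor, and the difference was not tested.

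The other 5 words differed less between canonical and all promoters, apart from the E-box, which was rarer in canonical ones; none of these differences was tested. GGTCACAC was in 5 canonical promoters (15.6%) and 0 paralog promoters, beside 7.69% of all, and TGACNNNGC in 5 canonical promoters (15.6%) and 1 paralog promoter (6.25%), beside 8.62%. These words overlap at Rpn1 and Prosbeta3. TATAAA was in 13 canonical promoters (40.6%) and 5 paralog promoters (31.2%), beside 45.8%, and CAGCTG, an E-box, in 1 canonical promoter (3.12%) and 1 paralog promoter (6.25%), beside 17.6%. TAATCC was in 4 canonical promoters (12.5%), those of Prosalpha2, Prosbeta7, Rpt2 and Rpt6, and in 1 paralog promoter, beside 8.73%. None of these 4 genes had an IDR summit within 500 bp of an own TSS, beside 37.5% of the canonical genes and 23% of all genes. The share over all genes with the word was not computed, so this count is not read as a result about the word. The search covered only the stretch around the gene's 5′ end, and TAATCC did lie within 100 bp of the Rpn6 summit at an inner TSS.

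**Figure D3:**
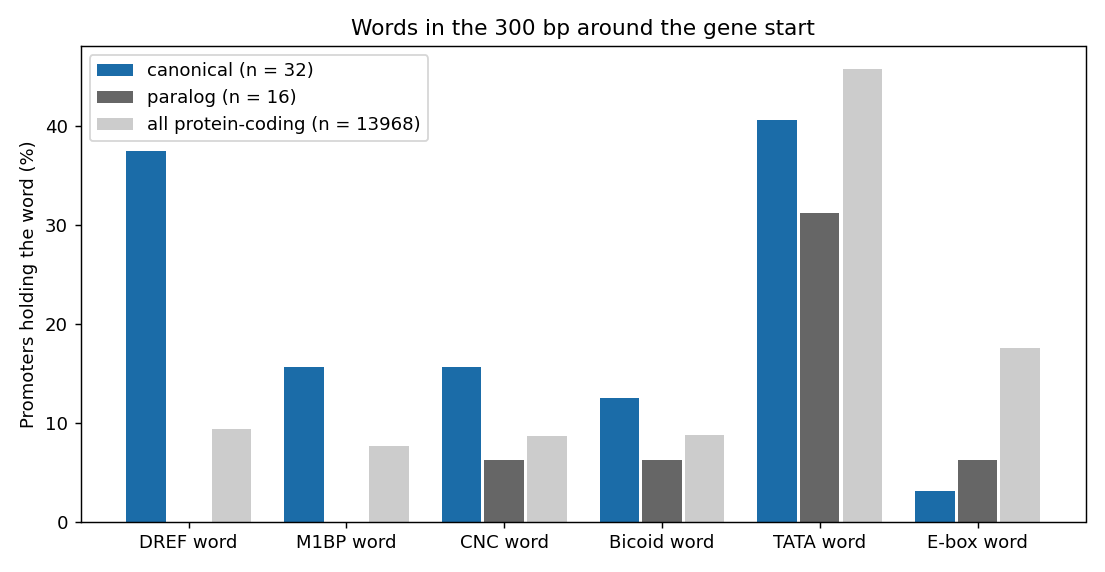
Share of promoters, in percent, that hold each searched word on either strand in the 300 bp around the gene's 5′ end, for canonical genes, paralogs and all protein-coding genes. TATCGATA stands at 37.5% of canonical promoters and 0 of paralog promoters, against 9.36% of all.

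Around the summits themselves, within 100 bp on either side of the 20 IDR summits in the members' windows, TATCGATA was found at 4 (20%), those of Prosalpha3, Prosbeta1, Prosbeta2 and Prosbeta6, beside 3.63% of all IDR summits and 7.75% of those near a protein-coding TSS. At 2 of the 4 the word is not the one counted in the member's promoter. The Prosbeta6 summit lay 1958 bp upstream, 110 bp from the TSS of CG4101. At Prosbeta2 the copy near the summit is the one 260 bases before the TSS. TAATCC was found at 2 of the 20 (10%), at Prosbeta6 and Rpn6, beside 6.74% and 7.38%. With 20 summits, each summit is worth 5 percentage points, and TAATCC stood within that of its share over all IDR summits.

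Short stretches of 3 further promoters, the 60 bases before the TSS in dm6 on the plus strand, show canonical genes with the DREF word in capitals and no IDR summit, and a paralog without it. They were chosen after their values were seen. They are chr3R:23752816-23752875 for Rpt5, chr2L:10221291-10221350 for Prosalpha6 and chr2L:13231979-13232038 for Prosalpha6T, the testis counterpart of Prosalpha6.
Rpt5: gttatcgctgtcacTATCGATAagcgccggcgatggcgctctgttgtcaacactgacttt
Prosalpha6: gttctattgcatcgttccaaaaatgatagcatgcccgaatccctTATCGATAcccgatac
Prosalpha6T: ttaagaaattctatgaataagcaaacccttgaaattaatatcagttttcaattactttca
Rpt5 and Prosalpha6 both carry the word within 60 bases of the TSS, and they differ in the lists: Rpt5 had an entry at its TSS in both replicates, and Prosalpha6 had none in any list.

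The replicates' own relaxed lists showed entries at most canonical starts, more in replicate 1 than in replicate 3. Within 500 bp of an own TSS, 25 of the 32 canonical genes (78.1%) had an entry in replicate 1, beside 50.7% of all protein-coding genes. In replicate 3 it was 14 of 32 (43.8%), beside 41.8% of all. All 14 of these also had a replicate 1 entry. In replicate 1 the genes were 4 of 7 in the alpha ring, 4 of 7 in the beta ring, 9 of 10 in the base and 8 of 8 in the lid, and in replicate 3 they were 3, 1, 4 and 6. The share of the canonical genes above that of all genes was therefore seen in replicate 1, and in replicate 3 it was near the background. Of the 12 canonical genes with the DREF word in the promoter, 11 (91.7%) had a replicate 1 entry and 8 (66.7%) a replicate 3 entry at an own TSS, beside 71.1% and 51% of all genes with the word. Of the 20 without it, 14 (70%) had one in replicate 1 and 6 (30%) in replicate 3, beside 48.5% and 40.8% of all genes without it. In the IDR set the same shares were 41.7% with the word and 35% without it, beside 34.7% and 21.8% of all genes. In the lid they ran the other way, with 1 of 4 genes with the word and 4 of 4 without it. The word was searched only around the gene's 5′ end, whereas entries were counted at any own TSS. For Rpn6 and Rpn8, among the 4 lid genes without the word, the summit lay at a TSS inside the gene span, outside the stretch searched. None of these differences was tested. Relaxed lists include background by design, so an entry is a weaker statement than an IDR peak.

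In 11 canonical genes (34.4%) replicate 1 alone had the entry, beside 15.9% of all genes, and in 0 replicate 3 alone, beside 7.07%. The signals of those 11 in replicate 1 ran from 23.8 to 381, with a median of 50.6. Where both replicates had an entry, their summits were 7 to 162 bp apart with a median of 26.5 bp, and replicate 1 had the better rank in 11 of 14 genes. Of the strongest IDR entry of each of the 16 members, 4 (25%) lacked an overlapping replicate 3 entry, those of Prosbeta1, Prosbeta7, Rpn1 and Rpn6, beside 2.72% of IDR entries near a protein-coding TSS. None lacked one in replicate 1, beside 1.49%. Depth and precipitation of the libraries cannot be told apart in peak lists, and their part in this difference was not tested.

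**Figure D4:**
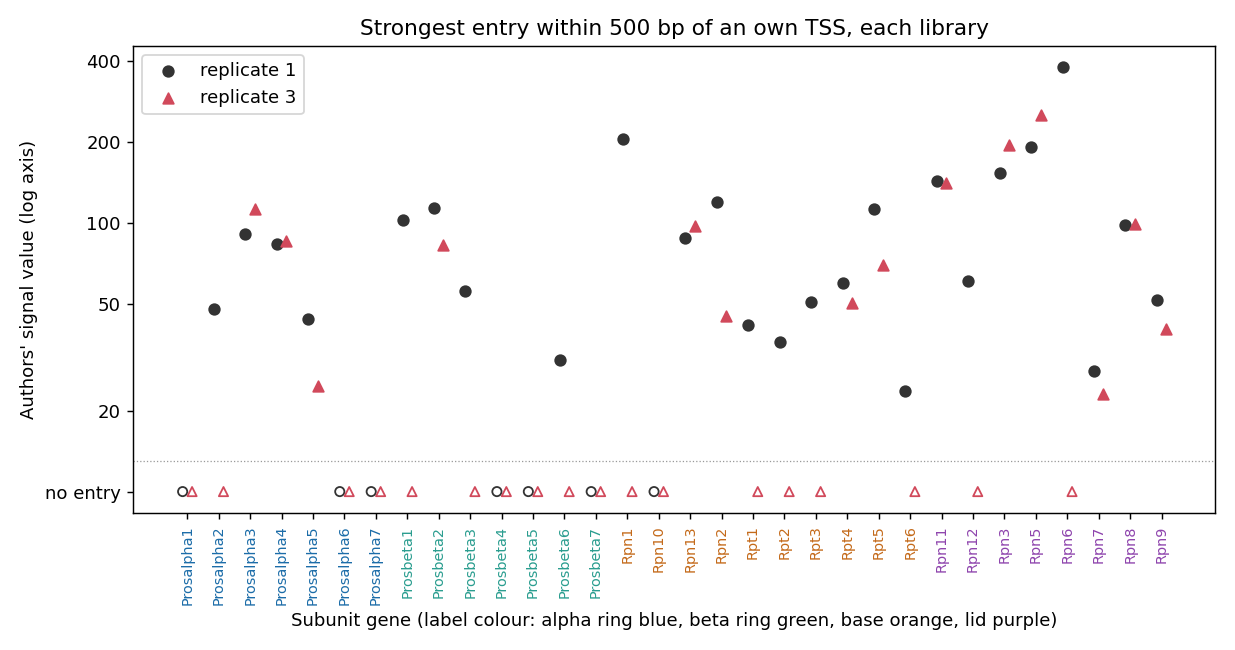
Signal of the entry at an own TSS for each of the 32 canonical genes in the relaxed lists of replicate 1 and replicate 3, on a log axis, in the units of the peak caller. Replicate 1 has an entry for 25 genes and replicate 3 for 14, and Rpn6 in replicate 1 is the highest at 381.

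The Rpt ATPase genes, with no IDR summit at an own TSS, all 6 had a replicate 1 entry there, beside 50.7% of all protein-coding genes. Their signals ran from 23.8 to 113. A divergent neighbour was present at 4 of the 6 (66.7%), Rpt2, Rpt3, Rpt4 and Rpt5, beside 35.2% of all genes. Entries at those 4 are not assigned to 1 of the 2 genes. Rpt5 had 113 in replicate 1 (rank 2817) at 25 bp upstream and 69.7 in replicate 3 (rank 6052) at 7 bp upstream, and no entry in the pooled list. Both ranks fall among the 6054 strongest of their lists. Counted over such strongest entries, 19 canonical genes (59.4%) had a summit in the window in replicate 1, beside 45.7% of all protein-coding genes, and 14 (43.8%) in replicate 3, beside 39.4%. Rpt4 had 59.5 in replicate 1 (rank 6309) and 50.6 in replicate 3 (rank 8468). The other 4 had replicate 1 entries only: 50.6 at Rpt3 (rank 7628), 41.7 at Rpt1 (rank 9321), 36.1 at Rpt2 (rank 10906) and 23.8 at Rpt6 (rank 17320). Across the canonical genes, 7 (21.9%) had an entry at an own TSS in a replicate and none in the pooled list, beside 14.5% of all genes. A gene missing from the pooled list, and so from the IDR set, is thus not a gene without entries, and why the pooled list lacks them was not tested.

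Of the 16 canonical genes without an IDR summit in the window, 4 had one in the pooled relaxed list. The strongest of these entries was that of Rpn12, a lid subunit, with 108 (rank 7032) at 1497 bp upstream, 16 bp from the TSS of Smn; it had 87.0 in replicate 1 (rank 3972) and 42.8 in replicate 3 (rank 10154). Rpn9, a lid subunit, had 85.7 (rank 8899) at 183 bp inside the gene, with 51.8 in replicate 1 (rank 7455) and 40.3 in replicate 3 (rank 10862). Prosalpha5 had 74.7 (rank 10161) at 4985 bp upstream, with none in replicate 1 and 75.7 in replicate 3 (rank 5514). At its own TSS Prosalpha5 had 73.0 in the pooled list (rank 10400), with 44.0 in replicate 1 (rank 8825) and 24.8 in replicate 3 (rank 20723). Rpn7, a lid subunit, had 64.3 (rank 11769) at 2594 bp upstream, with 30.7 in replicate 1 (rank 13056) and 29.5 in replicate 3 (rank 16025). Rpn12 and Rpn7 also had weaker pooled entries at an own TSS. These were 74.5 (rank 10187) at 179 bp upstream of Rpn12 and 47.1 (rank 16492) at 301 bp upstream of Rpn7.

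The other 12 canonical genes had no pooled entry in the window. Besides Rpt1, Rpt3, Rpt5 and Rpt6, these included Prosalpha2, with 48.01 in replicate 1 (rank 8067) at 176 bp upstream, and Prosbeta3, with 55.9 in replicate 1 (rank 6818) at 40 bp upstream. Neither had a replicate 3 entry at its TSS. For the remaining 6, Prosalpha1, Prosalpha6, Prosalpha7, Prosbeta4, Prosbeta5 and Rpn10 (a ubiquitin receptor), no list had an entry in the window. That is 18.8% of the canonical genes and 43.8% of the paralogs, beside 14% of all protein-coding genes. In the core particle 5 of 14 genes were in this state.

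In the pooled relaxed list the paralogs' entries were few, low in rank and away from their starts. There 5 of 16 (31.2%) had a summit in the window, beside 62.5% of the canonical genes and 71.7% of all protein-coding genes, and 0 had one within 500 bp of an own TSS, beside 56.2% of the canonical genes and 44% of all. Prosalpha3T had the highest, 75.2 (rank 10106) at 2490 bp upstream, with 71.9 in replicate 1 (rank 5016) and none in replicate 3. Prosalpha4T1 had 57.5 (rank 13264) at 4432 bp upstream, with none in replicate 1 and 44.4 in replicate 3 (rank 9782). Prosbeta4R2 had 46.8 (rank 16588) inside the gene, and Rpt6R and Prosbeta5R1 had 34.3 and 33.4 (ranks 23671 and 24529) more than 2 kb upstream. At their own TSS, 14 of 16 (87.5%) had no entry in any list, beside 21.9% of the canonical genes and 41.5% of all. The exceptions were Prosbeta2R2, listed in replicate 1 only, and Prosalpha4T1, listed in replicate 3 only.

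Of 18 other genes of the proteasome pathway, 10 (55.6%) had an IDR summit in the window and 9 (50%) within 500 bp of an own TSS, beside the 41.7% and 23% of all protein-coding genes given above. A divergent neighbour was present at 55.6% of the 18, and all genes with such a neighbour stood at 55.5% and 38.8%. Besides the genes named below, those with a summit were Ubi-p63E, REG, Uch-L5, PI31, Ufd1, Ubi-p5E and Pngl. Keap1, the adaptor that marks the transcription factor Cnc for destruction, had the strongest, with a pooled signal of 930 (rank 272) at 861 bp upstream, 363 in replicate 1 (rank 380) and 577 in replicate 3 (rank 220). Its summit was nearer, at 562 bp, to the TSS of the divergent gene kuk. Pomp, the chaperone of core particle assembly, had 565 (rank 734) at 229 bp upstream, with 274 in replicate 1 (rank 655) and 287 in replicate 3 (rank 896). The gene cnc, whose product in other contexts raises proteasome gene expression, had 7 IDR summits. It has 10 TSSs and a window of 46132 bp, longer than that of any member, so this count is not comparable with theirs. The strongest cnc summit had 305 (rank 1993), with 140 in replicate 1 (rank 2066) and 164 in replicate 3 (rank 2151). Keap1 thus stood above all 48 proteasome members, and Pomp above all but Rpn6.

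The 8 pathway genes without an IDR summit were of several kinds. Uba1, the ubiquitin-activating enzyme, had 125 (rank 6076), maf-S, the small Maf partner of Cnc, had 113 (rank 6719), and the shuttle factor Ubqn had 96.2 (rank 7937), all in the pooled relaxed list only. Sem1, the smallest lid subunit, whose symbol the rule does not take in, had no pooled entry. Nor had the shuttle factors Rad23 and rngo, the unfoldase gene TER94 and the deubiquitinase gene Usp14.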

How the data were processed

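The authors deposited peak lists on dm6: a relaxed list of 30000 entries for each of the 2 libraries and for their pool, and an IDR-thresholded set of 6054 entries, per the deposited file descriptions. Each entry holds the authors' signal value, a score in units of the caller, and a summit. The peak caller, like the aligner, is not given in the sources used here, and the dm3 lists were not used. Every IDR entry was found in the pooled list, so the set is not independent of it.

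Genes and TSSs came from Ensembl release 115 (BDGP6.54) and sequence from the RefSeq Release 6 genome. Summits were placed with Python 3.11.15, pandas 2.3.3 and numpy 2.4.6, and the placement was tested on simulated peaks. Coordinates count from 1. Ribosomal protein genes were those with symbols starting RpL or RpS. With 1 group there was no test between conditions, and no p-value is given. The members, lists and words were chosen with earlier results of these data known. Members named with values were the 3 with the highest signal in each part and every canonical gene without an IDR summit in the window. Prosbeta1, Rpn2, Rpn8, Rpn11, Rpn13, the Rpt genes at their own TSS and the paralogs with a pooled entry or one at their own TSS were added after their values were seen. Alternatives changed the window, the list, the gene assignment and the replicates.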

Additional observations from a re-analysis of the deposited data

How the results depend on the processing

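The 16 members with an IDR summit in the window, all canonical, became 2 (Rpn6 and Rpn8; 4.17% of members, beside 13.9% of all protein-coding genes) when only the gene body was searched. They became 9 (18.8%, beside 27.8%) with the stronger 50% of IDR entries, and 7 (14.6%, beside 24%) when each summit went only to its nearest protein-coding TSS. With all pooled relaxed entries the members numbered 25 (52.1%, beside 71.7%) and the paralogs 5, against 0 in the IDR set. The 12 members with a summit at an own TSS became 5 (10.4%, beside 14.7%) with the stronger 50% of entries. With only each gene's 5′ end in place of all its TSSs they became 10, as Rpn6 and Rpn8 of the lid dropped out. The share of all genes under that setting was not computed. The median distance of 183.5 bp became 93 bp with all pooled relaxed entries, and the median rank of 2443.5 became 3416.5 for summits within 500 bp of an own TSS.

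With the 6054 strongest entries of 1 replicate in place of the IDR set, the members in the window numbered 14 to 20. These were 29.2% in replicate 3, beside 39.4% of all protein-coding genes, and 41.7% in replicate 1, beside 45.7%. The canonical genes numbered 14 to 19 (43.8% and 59.4%) and the paralogs 0 to 1 (Prosalpha3T, without replicate 3). Members at an own TSS numbered 9 to 13 and paralogs at an own TSS 0 to 0, and no share of all genes was computed for these own-TSS counts. The counts of 14 and 9 came without replicate 1. The median distance ran from 163 to 246 bp. Ranked in 1 replicate, the members' strongest IDR entries had a median rank of 2266.5 in replicate 1 (16 entries) and 3381.5 in replicate 3 (the 12 with an overlapping entry, the 4 without one being dropped). Of 47 alternatives, 33 stayed close to the value reported and 14 did not. Close means within 1.5 times for a count and within the SD between the replicates for a median. Some of the 33 were fixed in advance, since with 0 paralogs in the IDR set a narrower window or fewer IDR entries could only give 0. The counts of members and of canonical genes were of the same genes under the IDR settings. The SD came from the same 2 replicate values that it was used to judge. The 33 are therefore not a measure of robustness, and the cause of a change was not tested beyond what each alternative removes or adds by construction. No paired analysis was possible because the samples form 1 group. The lists' unknown depth and the pooling of all cells and stages limit every count, and a summit between 2 starts cannot be assigned to 1 gene.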
